A study of Mus musculus with 12 samples.

Results

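The genes described here are 10 interferon-gamma (IFN-γ) induced GTPases, taken by symbol from the deposited table: Gbp2, Gbp3, Gbp4, Gbp7, Iigp1, Igtp, Irgm1, Irgm2, Tgtp2 and Gm4951. All 10 had a row among the 13283 genes measured, and they are set beside Ifng, the gene of IFN-γ itself. In cytotoxic T lymphocytes (CTL) given a PI3K p110δ inhibitor, Ifng mRNA was lower in 6 of 6 same-numbered pairs of libraries. Over those 6 pairs Gbp2, Gbp3, Igtp, Irgm1, Irgm2 and Tgtp2 were each higher in 6, and Gbp4 was lower in 5. How many of all genes were higher in 6 was not counted. Of CD8 T cell genes, Cd8a, Cd8b1, Cd3d, Cd3g, Cd247 and Gzma were also higher in each pair. Prf1 was lower in each, and Cd3e and Gzmb went both ways. The rise of Gbp2 was past the threshold in both genotypes when the pairing of libraries within a genotype was modelled, and no member was past it when the pairing was ignored.

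IFN-γ binds a receptor of IFNGR1 and IFNGR2 chains and activates the kinases JAK1 and JAK2. The signal acts on GAS elements in DNA, and IRF1 and related factors bind ISRE elements, so that many genes are transcribed. Among the most strongly induced are guanylate-binding proteins (Gbp genes) and immunity-related GTPases (Irgm1, Irgm2, Igtp, Iigp1, Tgtp2). Members such as Gbp2 and Iigp1 assemble on the vacuoles of intracellular parasites and bacteria and take part in their destruction. Irgm1, Irgm2 and Igtp are regulatory. CTL are a main source of IFN-γ and also carry its receptor.

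The cells were CD8+ T cells from female mice whose Cre recombinase is driven by the granzyme B promoter, so that the deletion follows activation. WT cells were GzmB cre+, and FOXO1-GFP KO cells were FOXO1-GFPfl/fl Gzmb cre+, with a floxed Foxo1 exon that carries EGFP. All 12 libraries came from cells activated with anti-CD3 and anti-CD28 for 48 h, then expanded with 20 ng/mL of IL-2 plus IL-12 at 2 ng/mL, and each of the 4 groups held 3. On the sixth day cells received the inhibitor IC87114 (PI3Kdi) at 10 µM or DMSO vehicle for 24 h, and CD8+ cells were then sorted, in FOXO1-GFP KO also for loss of GFP. Ages were not in the sample labels. The paper gives them as a range and states that mice were matched for age and sex. WT cells were not gated on GFP. Same-numbered vehicle and PI3Kdi libraries of 1 genotype deviated together, so tests below are named as unpaired or paired, without or with that pairing.

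Foxo1 was 5.77 to 10.46 FPKM (fragments scaled to exon length and library depth) in the 6 WT libraries and 0.58 to 1.75 FPKM in the 6 FOXO1-GFP KO libraries. Estimated depth was 12.9 to 48.0 M reads per library. It was 25.1 to 48.0 M in WT and 15.2 to 19.1 M in WT+PI3Kdi, and overlapped between treatments in FOXO1-GFP KO (12.9 to 32.8 and 17.7 to 30.6 M), and its part in the differences below was not tested. The estimated reads behind a member in 1 library ran from 278 for Gm4951 to 29383 for Gbp4. All 9 CD8 T cell genes listed were measured, with a summed level of 13164 to 19391 FPKM.

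Promoter sequences were examined because GAS and ISRE elements are the textbook route from IFN-γ to these genes. RefSeq windows (GRCm38.p6, 250 bases before to 50 after the gene start) were at hand for 7 of the 10 members, and those for Gbp4, Iigp1 and Gm4951 were not analysed here. Windows were searched on both strands for an ISRE-like motif (GAAA, any 2 bases, GAAA) and a GAS-like motif (TTCNNNGAA), and matches are in capitals below. Each stretch starts at most 110 bases before the start and keeps at most 30 bases of annotated exon, and is written 5′ to 3′ on the gene's strand. The start meant is that of RefSeq, which can differ from that of GENCODE. The stretches of Irgm1 and Irgm2, and part of that of Gbp2, lie inside the GENCODE gene positions given further below.
Gbp2, chr3:142620553-142620618, + strand: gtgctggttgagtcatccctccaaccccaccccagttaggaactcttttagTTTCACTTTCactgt
Gbp3, chr3:142559934-142560019, + strand: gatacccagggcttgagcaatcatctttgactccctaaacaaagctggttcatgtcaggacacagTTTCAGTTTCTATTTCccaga
Gbp7, chr3:142530226-142530297, + strand: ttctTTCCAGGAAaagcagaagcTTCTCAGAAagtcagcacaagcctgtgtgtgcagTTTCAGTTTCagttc
Igtp, chr11:58199446-58199536, + strand: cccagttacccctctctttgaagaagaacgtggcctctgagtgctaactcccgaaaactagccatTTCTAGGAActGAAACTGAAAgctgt
Irgm1, chr11:48871428-48871457, - strand: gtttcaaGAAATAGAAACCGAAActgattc
Irgm2, chr11:58214867-58214927, + strand: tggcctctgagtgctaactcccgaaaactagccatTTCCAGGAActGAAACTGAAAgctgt
Tgtp2, chr11:49064268-49064322, - strand: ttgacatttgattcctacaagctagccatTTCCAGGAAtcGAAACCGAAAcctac

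An ISRE-like match lay in a window of 7 of these 7 members, against 3.89% of the 9623 genes of the table that had a window. It also lay before genes of related lists: 6 of 9 other interferon-inducible GTPase genes with a window had one, and 9 of 14 type I interferon-stimulated genes. Gbp2 had 1, at 59 to 50 bases before the start, and Gbp7 had 1, at 53 to 44 bases. Gbp3 and Irgm1 each had 2 that overlap one another by 4 bases, and the other window of Gbp3 had none. A GAS-like match lay before 4 of the 7 members (Gbp7, Igtp, Irgm2 and Tgtp2), against 8.23% of the table's genes, and both motifs before these 4, against 0.582%. Among the 9 other GTPase genes 4 also had both.

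In Igtp, Irgm2 and Tgtp2 the GAS-like match began 11 bases before the ISRE-like match. That spacing, chosen after the sequences had been seen, occurred before 5 of all 27025 genes with a window, which were Igtp, Irgm2 and Tgtp2 with Tgtp1 and Gm12185. All 5 are interferon-inducible GTPase genes. They are related copies and not independent: the printed stretches of Igtp and Irgm2 shared an identical run of 38 bases, and those of Irgm2 and Tgtp2 a run of 17. These matches describe letters in a window and not binding.

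**Figure D1:**
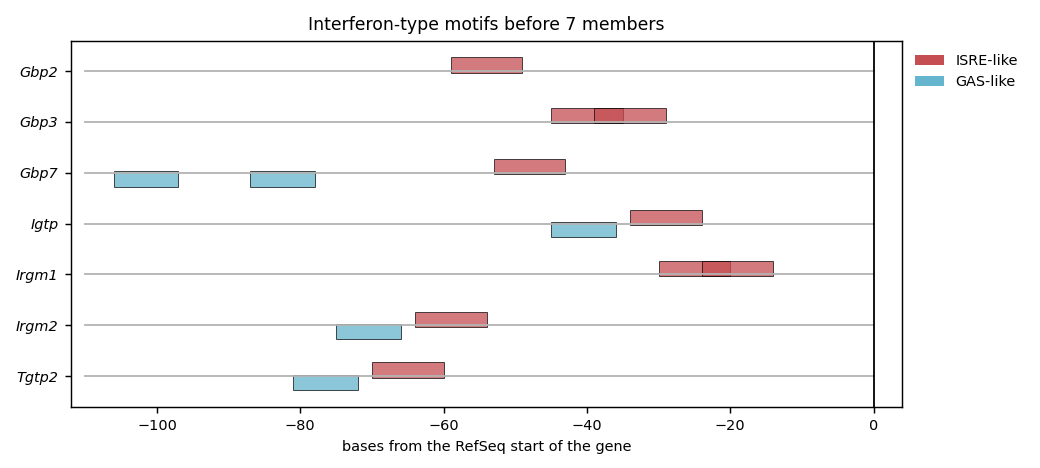
Positions of ISRE-like (red) and GAS-like (blue) matches before 7 members, in bases from the RefSeq start at 0. The ISRE-like matches lie between 15 and 70 bases before the start, and in Igtp, Irgm2 and Tgtp2 a GAS-like match lies just before one.

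The members lie in 4 places of the genome (GRCm38, GENCODE M21). Gbp7 (142530342 to 142550149), Gbp3 (142560026 to 142573209) and Gbp2 (142620602 to 142638008) follow one another on the plus strand of chromosome 3, and Gbp4 (105115767 to 105139586) is on the minus strand of chromosome 5. Irgm1 (48861968 to 48871683) and Tgtp2 (49057194 to 49064206) are on the minus strand of chromosome 11, and Igtp (58199556 to 58207591) and Irgm2 (58199618 to 58222782) overlap on its plus strand, sharing 162 bases of exon. Gm4951 (60212080 to 60247820) and Iigp1 (60376027 to 60392634) are on the plus strand of chromosome 18. All 10 are annotated as protein coding.

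Reads of some members are hard to assign to 1 gene. Of the 75-base windows of Tgtp2 transcripts, 81.4% also occur in Tgtp1 or Gm12185, so the level of Tgtp2 is uncertain. In the other members the share was at most 11.3% (Gbp7, mostly with the overlapping Gm43802). For Igtp it was 7.80%, all with Irgm2, and in the overlap the split between these genes is uncertain. Ifng shares 336 bases of exon with Gm49751 on the same strand (16.2% of its windows).

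**Figure D2:**
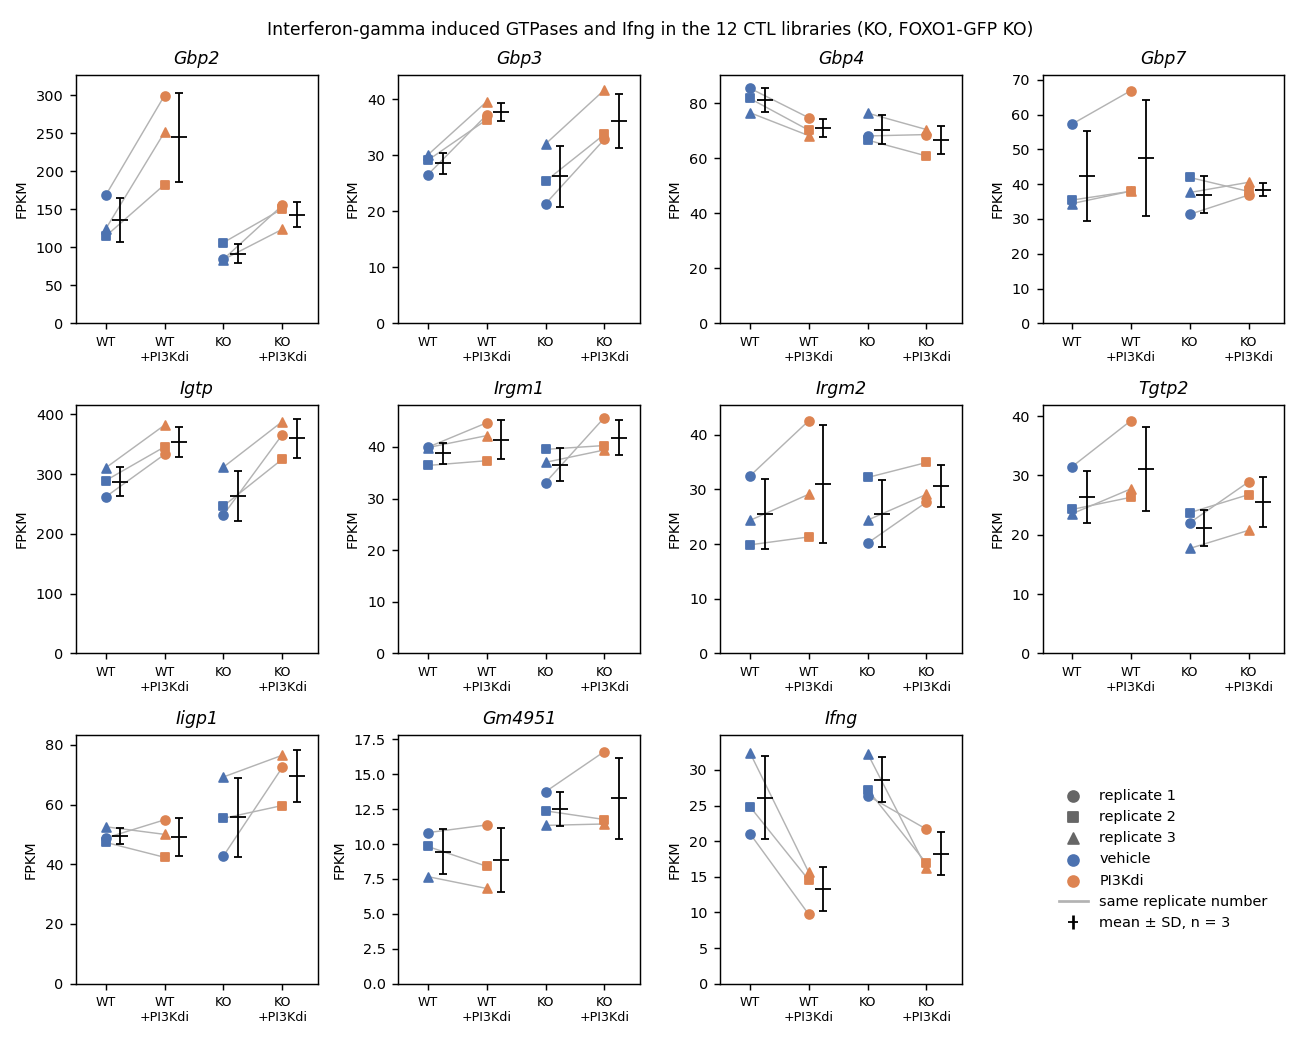
FPKM of the 10 members and Ifng in each of the 12 libraries, with the 3 libraries of a group as symbols by replicate number and the mean ± SD beside them. With PI3Kdi, Ifng falls along each of the 6 grey lines while Gbp2, Gbp3 and Igtp rise along all 6.

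Levels differed widely between members. Igtp, also known as Irgm3, was the highest at a mean of 316 FPKM over the 12 libraries, from 232 to 388. Gbp2 followed at 154 FPKM with the widest spread, 83.8 to 300 FPKM, a ratio of 3.57. The lowest Igtp library was below the highest Gbp2 library, so these ranges overlapped.

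Gbp4 stood at 72.3 FPKM (60.8 to 85.4) and Iigp1 at 56.0 (42.3 to 76.5). Gbp7 (41.4), Irgm1 (39.6), Gbp3 (32.2), Irgm2 (28.2) and Tgtp2 (26.0) had means within a narrower band, and their ranges overlapped. Gm4951 was the lowest at 11.02 FPKM (6.82 to 16.6), below every library of the other 9 members. Ifng itself averaged 21.6 FPKM, from 9.73 to 32.4.

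Ifng was 21.1, 24.9 and 32.4 FPKM in WT and 9.73, 14.6 and 15.6 with PI3Kdi. FOXO1-GFP KO libraries held 26.4, 27.3 and 32.3 FPKM of it, and those with PI3Kdi 21.7, 16.9 and 16.2. Vehicle and PI3Kdi libraries did not overlap in either genotype. The log2 difference in WT was -0.97 (SE 0.20; limma adjusted p = 0.136 unpaired and 0.000442 paired) and that in FOXO1-GFP KO -0.65 (SE 0.20; 0.651 and 0.00656). In FOXO1-GFP KO the paired difference lost its call without FOXO1-GFP KO replicate 3 (-0.50, adjusted p = 0.0333) and without FOXO1-GFP KO+PI3Kdi replicate 3 (-0.51, adjusted p = 0.0541). A gene was called at an adjusted p under 0.05 over all genes together with a fold over 1.5.

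Gbp2, whose protein coats pathogen vacuoles, was 168, 114 and 124 FPKM in WT and 300, 182 and 251 FPKM with PI3Kdi. The FOXO1-GFP KO libraries had less, 84.2, 106 and 83.8 FPKM, and 155, 150 and 124 FPKM with PI3Kdi. Every PI3Kdi library was above every vehicle library of its genotype, and the ratio within a pair ran from 1.42 to 2.03. On the log2 scale Gbp2 was higher by 0.84 in WT, 1.79 fold (SE 0.20 unpaired and 0.096 paired), with limma adjusted p = 0.203 unpaired and 0.000352 paired. The rise in FOXO1-GFP KO was 0.65, 1.57 fold, with adjusted p = 0.631 unpaired and 0.00235 paired.

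The fold of Gbp2 in FOXO1-GFP KO lay close to the threshold. Without FOXO1-GFP KO replicate 1 the paired log2 difference was 0.54 (adjusted p = 0.0163), and without FOXO1-GFP KO+PI3Kdi replicate 1 also 0.54 (adjusted p = 0.0130), both under 1.5 fold. In WT the paired call of Gbp2 held without any 1 library, with log2 differences of 0.76 to 0.95.

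Gbp3, also on chromosome 3, was 26.5, 29.1 and 30.1 FPKM in WT and 37.2, 36.4 and 39.6 FPKM with PI3Kdi. The FOXO1-GFP KO values were 21.3, 25.4 and 32.0 FPKM against 32.9, 33.7 and 41.7. The groups did not overlap in either genotype, and the paired adjusted p was 0.00395 in WT (1.32 fold) and 0.00184 in FOXO1-GFP KO (1.38 fold). Unpaired, it was 0.671 and 0.627. The rise was thus past an adjusted p of 0.05 with the pairing but under the fold threshold.

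Igtp, a regulatory immunity-related GTPase of the endoplasmic reticulum, was 262, 289 and 310 FPKM in WT and 333, 345 and 382 with PI3Kdi. For FOXO1-GFP KO the values were 232, 246 and 312 FPKM against 366, 325 and 388. Its groups did not overlap in either genotype. Its paired adjusted p was 0.0228 in WT (1.23 fold) and 0.00255 in FOXO1-GFP KO (1.37 fold), against 0.953 and 0.608 unpaired. In WT the paired adjusted p rose to between 0.0680 and 0.121 when any of the 6 WT or WT+PI3Kdi libraries was left out.

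Gbp4 went the other way. It was 85.4, 81.7 and 76.5 FPKM in WT and 74.7, 70.1 and 68.2 FPKM with PI3Kdi, with no overlap, and 68.0, 66.5 and 76.3 FPKM in FOXO1-GFP KO against 68.5, 60.8 and 70.4. In WT the difference was -0.19 on the log2 scale (0.875 fold), with adjusted p = 0.0256 paired and 0.9997 unpaired. Leaving out any of the 6 WT or WT+PI3Kdi libraries took the paired value to between 0.0582 and 0.125. In FOXO1-GFP KO the log2 difference was -0.08 (paired adjusted p = 0.261).

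**Figure D3:**
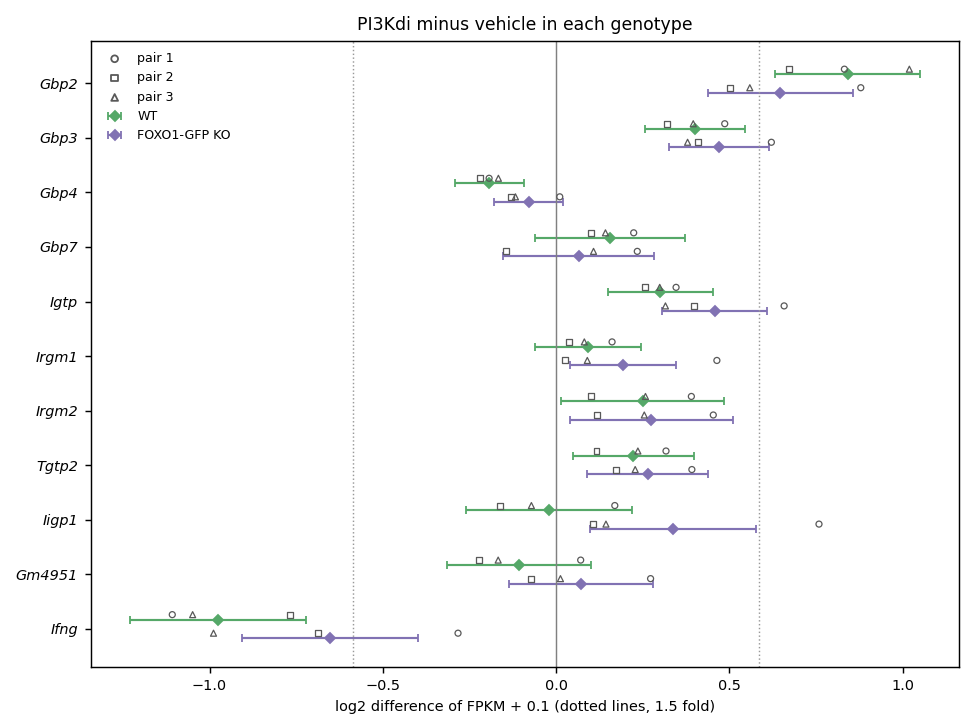
Log2 difference between PI3Kdi and vehicle for each member and Ifng in WT (green) and FOXO1-GFP KO (purple), with the 95% interval of the paired limma fit as bars and the 3 pairs as open symbols. Gbp2, Gbp3 and Igtp lie to the right of 0 in both genotypes and Ifng to the left.

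The remaining 6 members did not reach an adjusted p of 0.05 in either genotype with or without the pairing. Tgtp2, Irgm2, Irgm1 and Iigp1 each had an unpaired adjusted p of 0.9997 (WT) and 0.933 (FOXO1-GFP KO). Tgtp2, an effector GTPase, was 31.5, 24.3 and 23.5 FPKM in WT and 39.2, 26.3 and 27.7 with PI3Kdi (log2 difference 0.22, paired adjusted p = 0.113). FOXO1-GFP KO cells had 22.0, 23.7 and 17.7 FPKM of it against 28.9, 26.8 and 20.8 (0.26, paired adjusted p = 0.0556). It was higher in 6 of 6 pairs although the groups overlapped.

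Irgm2 was 32.5, 19.9 and 24.3 FPKM in WT and 42.6, 21.3 and 29.1 with PI3Kdi (log2 difference 0.25, paired adjusted p = 0.185). The FOXO1-GFP KO libraries held 20.2, 32.2 and 24.4 FPKM against 27.7, 34.9 and 29.1 (0.28, paired adjusted p = 0.117). Irgm1, which like Irgm2 is a regulatory member of its family, had log2 differences of 0.09 (WT) and 0.19 (FOXO1-GFP KO), and lay between 33.1 and 45.7 FPKM in all libraries. Both were higher in 6 of 6 pairs, with overlapping groups.

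Iigp1, the effector that oligomerises on parasite vacuoles, was 48.8, 47.4 and 52.6 FPKM in WT and 54.9, 42.3 and 50.03 with PI3Kdi. Levels in FOXO1-GFP KO were 42.8, 55.4 and 69.3 FPKM against 72.4, 59.7 and 76.5. The log2 difference in WT was -0.02 and in FOXO1-GFP KO 0.34 (paired adjusted p = 0.0714). The difference between these responses was 0.36 (95% interval 0.02 to 0.70, paired adjusted p = 0.429), so a differing response of the genotypes was not shown.

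Gbp7 was highest in WT replicate 1 and WT+PI3Kdi replicate 1, at 57.3 and 66.9 FPKM, and 31.3 to 41.9 FPKM in the other 10 libraries. Its log2 difference was 0.16 in WT (95% interval -0.06 to 0.37) and 0.07 in FOXO1-GFP KO (-0.15 to 0.28). Gm4951, an immunity-related GTPase gene on the same chromosome as Iigp1, was higher with PI3Kdi in 3 of 6 pairs. The log2 difference of Gm4951 in WT was -0.11 and in FOXO1-GFP KO 0.07.

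Without the pairing 0 of 10 members were called in WT and 0 of 10 in FOXO1-GFP KO, where 0.0979% and 0.0452% of all genes were, and 3 members in each had an unadjusted p under 0.05. With it, 1 of 10 was called in each genotype (Gbp2), where 2.57% and 2.79% of all genes were. At an adjusted p under 0.05 of any fold, 3 members rose and 1 fell in WT (7.41% of all genes changed), and 3 rose and 0 fell in FOXO1-GFP KO (10.1%). On the log2 scale the median member differed by 0.19 (WT) and 0.27 (FOXO1-GFP KO), against -0.04 and -0.02 over all genes. Vehicle and PI3Kdi groups did not overlap for 4 of 10 members in WT (10.2% of all genes) and 3 of 10 in FOXO1-GFP KO (10.1%).

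The pairs differed in size of response. In FOXO1-GFP KO the largest PI3Kdi difference lay in pair 1 for 10 of 10 members, with a median of 0.46 against 0.11 and 0.19 in pairs 2 and 3. In that same pair Ifng fell least, with a log2 difference of -0.28 against -0.69 and -0.99. In WT pair 1 held the largest difference for 8 of 10 members, with a median of 0.27 against 0.10 and 0.19. There Ifng fell most, by 1.11 on the log2 scale against 0.77 and 1.05. The fall of Ifng ordered the pairs as the member median did in WT but not in FOXO1-GFP KO. With 3 pairs in each genotype a link was not tested. How many of all genes had their largest difference in pair 1 was not counted.

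No member was called for the difference between the PI3Kdi responses of the genotypes, unpaired or paired, where 0.00% and 0.0226% of all genes were, and 0 of 10 had an unadjusted p under 0.05 in the unpaired limma fit. The paired 95% interval of that difference was -0.49 to 0.10 for Gbp2, -0.14 to 0.28 for Gbp3 and -0.06 to 0.37 for Igtp. For Ifng it was -0.04 to 0.68.

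FOXO1-GFP KO was then compared with WT. No WT library was paired with a FOXO1-GFP KO library, and "paired" here names the fit that models the pairs within each genotype. Gbp2 was lower in FOXO1-GFP KO, at 91.4 ± 12.8 FPKM against 136 ± 28.7 (SD, n = 3 each), and with PI3Kdi at 143 ± 16.98 against 244 ± 58.9. The groups did not overlap at either treatment. The log2 difference was -0.56 (limma adjusted p = 0.495 unpaired and 0.565 paired), and with PI3Kdi -0.75 (0.115 and 0.116), so these fits did not reach the threshold. The paper did call Gbp2, as raised by PI3Kdi in WT and lower in FOXO1-GFP KO+PI3Kdi than in WT+PI3Kdi. Its fold for the latter, 0.59, was the same as here. The paper describes the mRNAs of that overlap as regulated by PI3K p110δ through FOXO1. Its test used voom on read counts. Here voom on estimated reads, unpaired or paired, also did not call Gbp2 between the genotypes with PI3Kdi. Why the calls differ was not tested. Unpaired and without WT+PI3Kdi replicate 2, Gbp2 was called with PI3Kdi, at -0.95 (adjusted p = 0.0490).

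Gm4951 was higher in FOXO1-GFP KO, at 12.5 ± 1.21 FPKM against 9.44 ± 1.61, and with PI3Kdi at 13.3 ± 2.91 against 8.87 ± 2.31 (SD, n = 3 each). The groups did not overlap, and the log2 differences of 0.41 and 0.59 had adjusted p = 0.845 and 0.279 unpaired and 0.9998 and 0.275 paired. Iigp1, also on chromosome 18, differed by 0.14 without PI3Kdi and by 0.50 with it, where the groups did not overlap (adjusted p = 0.248 unpaired and 0.539 paired). Gbp4 was 81.2 ± 4.45 FPKM in WT and 70.3 ± 5.27 FPKM in FOXO1-GFP KO (SD, n = 3), also without overlap (log2 difference -0.21, adjusted p = 0.757 unpaired and 0.946 paired).

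Without PI3Kdi 0 of 10 members were called between the genotypes, both unpaired (0.331% of all genes) and paired (0.233%). With PI3Kdi 0 of 10 were called unpaired (1.45%) and paired (1.18%). In the unpaired limma fit 2 and 3 members had an unadjusted p under 0.05. When replicate numbers were blocked across all 4 groups instead, Gbp2 (adjusted p = 0.0425) and Gm4951 (adjusted p = 0.0102) were called with PI3Kdi, where 3.30% of all genes were, and Gbp2 was no longer called for PI3Kdi in WT (adjusted p = 0.0749) or FOXO1-GFP KO (0.157), although same-numbered libraries of different genotypes did not deviate together throughout. Groups did not overlap for 3 of 10 members without PI3Kdi (10.3% of all genes) and 3 of 10 with it (14.8%).

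**Figure D4:**
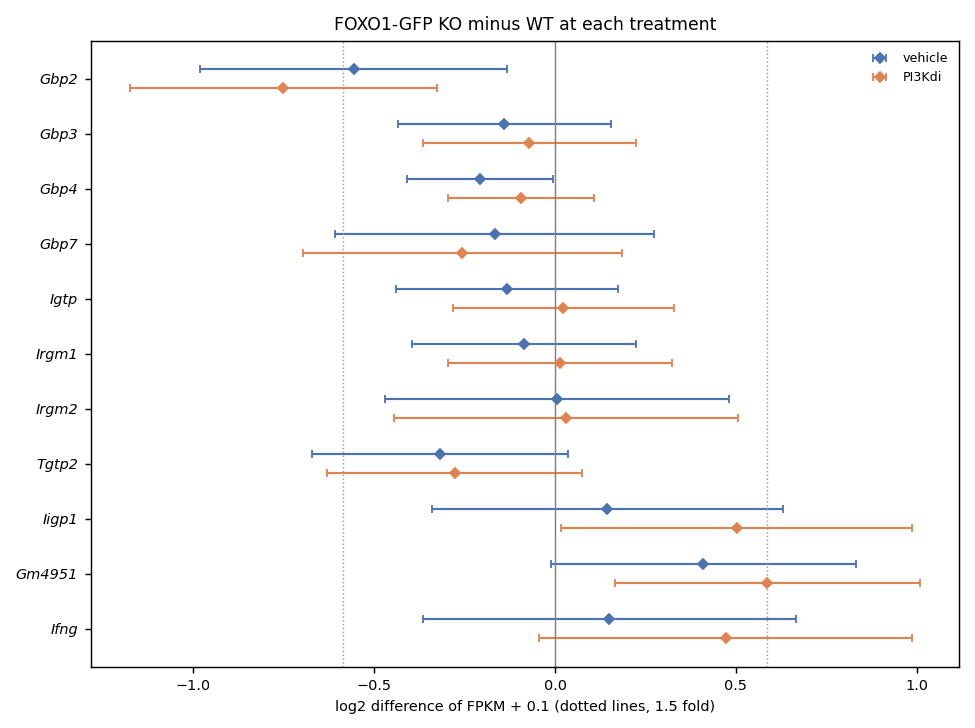
Log2 difference between FOXO1-GFP KO and WT for each member and Ifng, with vehicle (blue) and PI3Kdi (orange). Bars are the 95% interval of the limma fit that models pairs within each genotype. Gbp2 lies to the left of 0 and Gm4951 to the right at both treatments, and no member reached an adjusted p of 0.05.

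Some genes of B cells were lower in FOXO1-GFP KO. Of the 13 listed, 7 were measured. Without PI3Kdi 1 was called lower, unpaired and paired (Ighm, 0.331 fold), and with PI3Kdi 3 were unpaired (Ighm, Igkc and Jchain) and 2 paired (Ighm and Igkc), while Cd74 and H2-Aa had folds of 1.38 and 1.46 without passing the test. The summed level of the 7, of which Ighm, H2-Ab1 and Cd79b were the highest, was 19.9 to 27.1 FPKM in WT libraries and 8.90 to 11.98 in FOXO1-GFP KO libraries. The defining B cell genes Cd79a, Ms4a1 and Pax5 were not analysed here. The paper lists Jchain, like Gbp2, among the mRNAs that it calls FOXO1 dependent. Of 12 listed genes of myeloid cells 6 were measured and 0 were called between the genotypes, unpaired or paired, with 1 at an unadjusted p under 0.05 in the unpaired limma fit at each treatment. Their sum, 259 to 359 FPKM in WT and 386 to 450 in FOXO1-GFP KO, was almost all Ly6c2, which CD8 T cells also express, and Itgam, Cd14, Mpeg1 and Itgax were under 1 FPKM in all libraries. With PI3Kdi 3 of the 6 were higher in FOXO1-GFP KO. The part of these genes in the genotype differences of Gbp2 and Gm4951 was not tested, and in bulk RNA fewer cells of a type and less RNA per cell cannot be told apart.

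The PI3Kdi comparison was set beside the pathway that leads to these GTPases. Of 13 genes of IFN-γ, its receptor and its signalling, all were measured, and with the pairing 2 rose and 1 fell in WT at an adjusted p under 0.05, and 5 rose and 1 fell in FOXO1-GFP KO. The gene that fell was Ifng. By the same rule 7.41% and 10.1% of all genes changed, and the counts of the lists below are to be read against these shares. Unpaired, 0 genes of the signalling list and of the lists that follow were called with PI3Kdi in either genotype by limma, and in the signalling list 3 (WT) and 4 (FOXO1-GFP KO) had an unadjusted p under 0.05. On the log2 scale the list's median was 0.01 (WT) and 0.10 (FOXO1-GFP KO), and all genes' -0.04 and -0.02.

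Both receptor chains were higher with PI3Kdi in 6 of 6 pairs. Ifngr2, the signalling chain, was 4, 3.19 and 3.97 FPKM in WT and 7.01, 5.96 and 5.32 with PI3Kdi (1.62 fold, paired adjusted p = 0.00275). FOXO1-GFP KO libraries held 2.26, 2.54 and 4.11 FPKM against 5.87, 6.19 and 8.72 (2.33 fold, paired adjusted p = 0.000165). Unpaired, the adjusted p was 0.533 and 0.218. The paired calls of Ifngr2 held without any 1 of the 12 libraries in both genotypes.

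Ifngr1, the ligand-binding chain, was 139, 144 and 119 FPKM in WT and 190, 218 and 189 with PI3Kdi (1.48 fold, adjusted p = 0.00034 paired and 0.264 unpaired). Its FOXO1-GFP KO values were 142, 103 and 111 FPKM against 189, 147 and 158 (1.39 fold, adjusted p = 0.00146 paired and 0.627 unpaired). Ifngr1, Irf1, Socs1, Socs3 and Gbp11, which were past the adjusted p but not the fold, were named after their values had been seen.

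Irf1, a transcription factor, and Socs1 and Socs3, which damp cytokine signalling, passed the paired adjusted p in FOXO1-GFP KO, at 1.23, 1.33 and 1.36 fold, but each missed it when any of 4 libraries was left out (adjusted p up to 0.0827, 0.113 and 0.0903). The difference between the genotypes in these responses was not past the threshold for any of the 13 genes, unpaired or paired.

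Of 22 other interferon-inducible GTPase genes, 19 were measured. With the pairing 2 rose and 1 fell in WT at an adjusted p under 0.05, and 4 rose and 1 fell in FOXO1-GFP KO, and unpaired 2 and 4 had an unadjusted p under 0.05. Gbp5, known for its part in inflammasome activation, was 5.39, 4.54 and 4.60 FPKM in WT and 9.07, 6.44 and 7.32 with PI3Kdi (1.55 fold, adjusted p = 0.00148 paired and 0.405 unpaired). Gbp11 rose in both genotypes, at 1.46 and 1.38 fold (adjusted p = 0.0184 and 0.0328 paired, 0.9997 and 0.933 unpaired), and missed an adjusted p of 0.05 without any of 5 libraries in each (up to 0.111 and 0.163). Without WT+PI3Kdi replicate 1 Gbp5 rose by 0.56 on the log2 scale in WT (adjusted p = 0.0170), under 1.5 fold.

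The one that fell was Mx1, an antiviral GTPase induced chiefly by type I interferon. It was 16.8, 19.1 and 18.1 FPKM in WT and 10.9, 12.7 and 11.8 with PI3Kdi (0.658 fold, adjusted p = 0.000297 paired and 0.264 unpaired). Its FOXO1-GFP KO levels were 23.8, 16.8 and 20.9 FPKM against 16.8, 12.4 and 17.3 (0.756 fold, adjusted p = 0.00451 paired and 0.841 unpaired).

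Of 25 other genes induced by IFN-γ, 21 were measured, and with the pairing 1 rose in WT and 8 rose in FOXO1-GFP KO, none past 1.5 fold, and unpaired 1 and 2 had an unadjusted p under 0.05. The WT share is under the 7.41% of all genes that changed. The 8 include Irf1 and Socs1, which also belong to the signalling list. The list's median log2 difference was 0.01 (WT) and 0.21 (FOXO1-GFP KO). Of 20 type I interferon-stimulated genes, all measured, 0 rose and 1 (Mx1) fell in WT, and 5 rose and 1 (Mx1) fell in FOXO1-GFP KO, and unpaired 1 and 4 had an unadjusted p under 0.05. Among the 5, Rtp4 was called, at 1.54 fold (adjusted p = 0.00883 paired and 0.642 unpaired), though not without FOXO1-GFP KO replicate 1 (log2 0.46), FOXO1-GFP KO replicate 2 (0.60) or FOXO1-GFP KO+PI3Kdi replicate 1 (0.45).

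Usp18, which damps type I interferon signalling, was the 1 gene of the 4 interferon lists called between the genotypes with PI3Kdi. It was 5.29, 5.48 and 5.63 FPKM in WT+PI3Kdi and 13.96, 9.96 and 11.8 in FOXO1-GFP KO+PI3Kdi (2.14 fold, adjusted p = 0.00191 unpaired and 0.00387 paired). Of 13 genes that target these GTPases to vacuoles, among them Atg5 and Atg16l1, 0 changed in either genotype with PI3Kdi in the limma fits, unpaired or paired, and 0 had an unadjusted p under 0.05 unpaired.

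**Figure D5:**
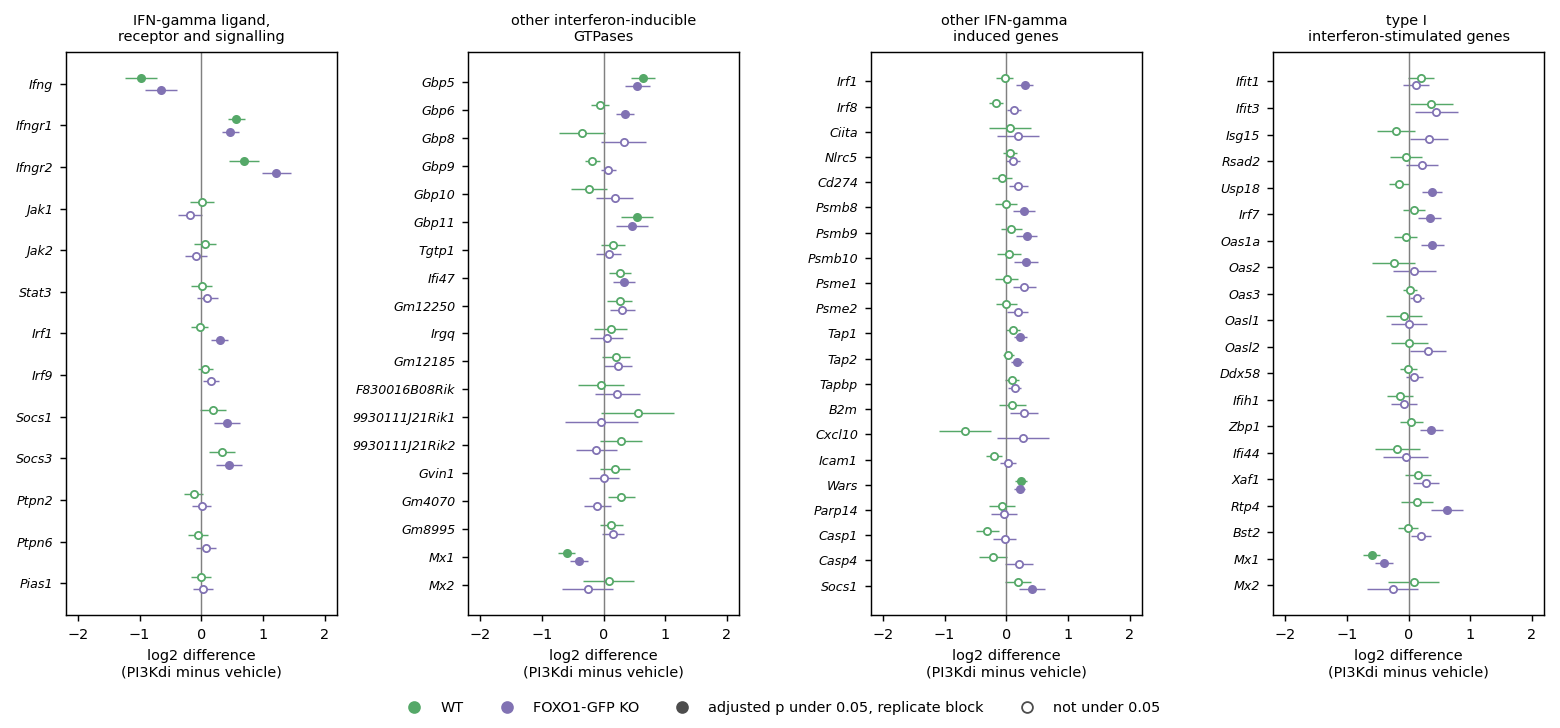
Log2 difference between PI3Kdi and vehicle for the measured genes of 4 interferon lists in WT (green) and FOXO1-GFP KO (purple), with 95% intervals of the paired limma fit and filled points at an adjusted p under 0.05. Ifng lies left of 0 while Ifngr1, Ifngr2, Gbp5 and Gbp11 lie right of 0 in both genotypes. Irf1, Socs1, Mx1 and Mx2 each appear in 2 lists.

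Of 10 genes that act on Ifng in CTL, 2 rose and 1 fell in WT with the pairing at an adjusted p under 0.05, and 3 rose and 1 fell in FOXO1-GFP KO, and unpaired 1 in each genotype had an unadjusted p under 0.05. Stat4, which transmits the IL-12 signal, was 13.5, 11.6 and 11.2 FPKM in WT and 18.4, 16.1 and 16.7 with PI3Kdi (1.41 fold, adjusted p = 0.000627 paired and 0.216 unpaired). FOXO1-GFP KO+PI3Kdi libraries held 0.514 fold of the WT+PI3Kdi level (adjusted p = 0.00237 unpaired and 0.00335 paired). Prdm1, a transcription factor gene, fell in WT to 0.657 fold (adjusted p = 0.0227 paired and 0.9997 unpaired), a call lost without any of 5 of the 6 WT and WT+PI3Kdi libraries (adjusted p up to 0.143).

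Genes that mark CD8 T cells moved with PI3Kdi too. The log2 difference was above 0 for 7 of 9 in WT and 8 of 9 in FOXO1-GFP KO. With the pairing 6 of 9 rose and 1 fell in FOXO1-GFP KO at an adjusted p under 0.05. In WT 1 rose and 1 fell, and unpaired 2 (FOXO1-GFP KO) and 0 (WT) had an unadjusted p under 0.05. Cd8a was 153, 148 and 160 FPKM in WT and 183, 173 and 211 with PI3Kdi. It was 139, 170 and 205 FPKM in FOXO1-GFP KO and 179, 229 and 253 with PI3Kdi (1.29 fold). In WT the B cell genes Ighm (1.42 fold) and Igkc (2.56 fold, under 3 FPKM in all libraries) and Cd4 (1.61 fold, under 1 FPKM) also rose with the pairing (adjusted p = 0.0191, 0.0294 and 0.0413), while the summed level of the measured B cell genes was 19.9 to 24.0 FPKM with vehicle and 20.8 to 27.1 with PI3Kdi. The part of these changes in the member differences was not tested.

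The members did not share a single pattern over the 12 libraries. Gbp3 and Igtp had a Pearson r of 0.95 on the log2 scale, and Gbp2 and Tgtp2 one of 0.86, while Tgtp2 and Igtp had 0.14 and Gbp4 and Gbp3 -0.16. Against the mean standardised level of the 10 members, Irgm1 had the highest r among them (0.90), and Gbp4 (0.06) and Gm4951 (0.08) the lowest. Each member is itself part of that mean, which raises its r, while Ifng and the genes named below are not. Ifng had -0.69 with that mean and -0.84 with Gbp2.

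Among the 10362 other genes that averaged 1 FPKM or more, the 8 most like the members' mean were Tapbp (r = 0.89), Hp1bp3 (0.88), Pitpnc1 (0.87), Hsd17b11 (0.87), Crebrf (0.87), Ifit1 (0.87), Gbp5 (0.86) and Tap1 (0.85). These correlations describe 12 libraries that share treatment, genotype and pairing, and carry no test.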

How the data were processed

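The 12 libraries are mRNA sequencing of sorted CD8+ CTL in 4 groups of 3. The authors aligned paired reads with STAR 2.7.1a to GRCm38.p6, counted reads per gene, kept expressed genes and scaled libraries by TMM in edgeR before dividing by exon length. The deposited values are FPKM rounded to 2 decimals, and 0 further columns held values per sample. Genes below the authors' filter could not be tested, and the FPKM scale leaves depth to be estimated from its steps of whole reads. In held-out genes 98.5 to 99.7% of values came out whole within 0.2 reads, against 40% by chance, which gave the depths.

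The 10 members and the lists were chosen with earlier results of these data known. limma 3.58.1 was fitted in R 4.3.3 to log2(FPKM + 0.1) of all 13283 genes, with 4 group means over 12 libraries and a mean-variance trend. Benjamini-Hochberg adjusted p-values were taken over all genes, so a fold change is on that log2 scale and slightly understates low genes. The paired fit added a random effect for genotype and replicate number (consensus correlation 0.757). Deviations from group means correlated at 0.594 to 0.838 over the 6 same-numbered pairs within a genotype, and at -0.499 to 0.730 over 12 pairs across genotypes, so the pairing was used within genotypes only. The labels do not say whether replicates were separate mice, so p-values measure the spread between these samples.

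The text names all 10 members, Ifng, up to 6 called genes of a list, and the 8 genes most like the members. The fits were tested on simulated data. Gene positions came from GENCODE M21 and promoters from RefSeq. Some genes of the lists are not reported here and do not enter the counts. Protein sequences were not analysed here.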

Additional observations from a re-analysis of the deposited data

How the results depend on the processing

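The 39 alternatives, 24 of them planned, were compared on the 5 counts of members called and on 55 values (10 members and Ifng in 5 comparisons). The settings added after seeing the data were leaving out each library, a pseudocount of 1, median centring and quantile normalization, each with the replicate block within genotype. Without a block, 0 members were called under every pseudocount, filter, scaling, choice of groups, trend and voom setting. With the replicate block within genotype 1 member (Gbp2) was called for PI3Kdi in WT and 1 for PI3Kdi in FOXO1-GFP KO, and so it was with the block as fixed terms, with voom on estimated reads, with a pseudocount of 1, with median centring and with quantile normalization. With a block on the number shared by all groups 2 were called for genotype with PI3Kdi, and 0 for PI3Kdi in either genotype, so Gbp2 lost both of its calls under it. Leaving out 1 library gave counts of 0 to 1 for PI3Kdi in each genotype (1 throughout in WT with the block, 0 throughout in both without it) and for genotype with PI3Kdi, and 0 throughout for the other comparisons. Of 2112 single values, 0 changed sign while called and 72 passed the threshold where the unpaired fit did not. Another 68 uncalled values changed sign, among them Iigp1 for PI3Kdi in WT (-0.11 to 0.08). With 3 libraries a group the unpaired fit called no member in any of the 5 comparisons.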
